A study of Homo sapiens with 12 samples.

Results

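The 9 genes described here, HMGA2, LIN28B, IGF2BP1, IGF2BP2, IGF2BP3, ARID3B, TRIM71, PLAGL2 and NRAS, are long-known targets of the microRNA let-7. They were taken by symbol from 26464 genes in the deposited tables, and the gene model with the most fragments summed over 12 libraries stood for each gene. That sum is the only measured value used in the choice of models. Poly(A) RNA was sequenced from PC3, a human prostate adenocarcinoma line, and from MG63, a human osteosarcoma line, both labelled as wild type. Each line received, with Lipofectamine RNAiMAX, 10 nM of siRNA: siControl, the non-targeting control, siLARP4A, aimed at LARP4A, or siLARP4B, aimed at LARP4B. Cells were taken 72 h later. This gave 6 groups of 2 libraries, which the design text calls biological replicates. All groups therefore carry transfection reagent and siRNA, and no untransfected cells were analysed here. The sequences of the siRNAs are not given in the sources used here. LARP4A, whose gene is listed as LARP4, and its relative LARP4B belong to the La-related proteins, which bind RNA and contact the poly(A)-binding protein. The question put to the 9 genes was whether known let-7 targets rise under either siRNA in both lines. An added small RNA can compete with endogenous microRNAs for the silencing complex. siControl is such a small RNA too, given at the same 10 nM. Competition shared with siControl cancels in every contrast against it, so these contrasts cannot tell whether it occurred. They show only how the members differ from siControl.

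As background, let-7 is a family of microRNAs that accumulates as cells differentiate and is often low in tumours. Loaded into an Argonaute protein, it pairs through its seed with sites in the 3′ untranslated region (UTR) of target mRNAs, and the TNRC6 proteins recruited there lead to deadenylation, decay and lower translation. LIN28A and LIN28B bind let-7 precursors and block their maturation, and LIN28B is itself a let-7 target, which makes the pair mutually repressive. TRIM71 is the human relative of worm lin-41, a founding let-7 target, and HMGA2 is the target best known in tumours because loss of its 3′ UTR frees it from let-7.

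The let-7 family sequences are shown first because every target site below is read against their common seed. They were copied from the RefSeq miRNA table (GRCh38.p14), and capitals mark the seed, bases 2 to 8.
let-7a-5p: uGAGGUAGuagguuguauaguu
let-7b-5p: uGAGGUAGuagguugugugguu
let-7g-5p: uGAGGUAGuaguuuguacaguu
let-7i-5p: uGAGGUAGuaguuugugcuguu
miR-98-5p: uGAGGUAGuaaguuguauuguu
These 5 mature RNAs differ outside the seed and share it exactly, so a seed match does not tell them apart. The let-7a sequence shown is encoded at 3 loci, among them chr22:46112752-46112773 on the plus strand.

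The 3′ UTRs of the members were read from GENCODE release 29 on GRCh38 and searched on the sense strand for CTACCTC, the 7 bases opposite the seed, and for CTACCTCA, the 8-base match that contains it. All 9 genes hold at least 1 match, 23 in all, of which 12 are 8-base matches. Over 17637 genes with an annotated 3′ UTR, 9.18% hold a match and 0.068% hold 4 or more. The median length of those 3′ UTRs is 995 bases, while the members' run from 1792 bases in IGF2BP2 to 6206 in IGF2BP1, and a longer UTR holds more matches of any motif. A selection of the sites is given below, with at least 1 for each gene, and the effect of single sites was not tested. Each is shown with 15 bases before the match in lower case, the 7-base match in capitals and the base after it.
HMGA2 site 1 (chr12:65963298-65963320, plus strand): gccaacgttcgatttCTACCTCa
HMGA2 site 2 (chr12:65964533-65964555, plus strand): ccccactactcaataCTACCTCt
HMGA2 site 3 (chr12:65964945-65964967, plus strand): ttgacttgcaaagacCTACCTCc
HMGA2 site 4 (chr12:65965798-65965820, plus strand): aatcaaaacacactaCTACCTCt
ARID3B site 1 (chr15:74598101-74598123, plus strand): tatttcaataaacctCTACCTCt
PLAGL2 site 1 (chr20:32194819-32194841, minus strand): ttcagaaacacacttCTACCTCt
NRAS site 1 (chr1:114707901-114707923, minus strand): aagttctcagaataaCTACCTCc
IGF2BP1 site 1 (chr17:49051061-49051083, plus strand): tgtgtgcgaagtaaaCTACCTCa
IGF2BP2 site 1 (chr3:185644220-185644242, minus strand): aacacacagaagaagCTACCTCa
IGF2BP3 site 1 (chr7:23311795-23311817, minus strand): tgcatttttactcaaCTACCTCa
TRIM71 site 4 (chr3:32895805-32895827, plus strand): gcttttgctgagtttCTACCTCa
TRIM71 site 5 (chr3:32895828-32895850, plus strand): cttgtggcaagtcatCTACCTCa
LIN28B site 1 (chr6:105078812-105078834, plus strand): acccggttgcaaagtCTACCTCa
The 4 HMGA2 sites share the capitals and little else, and only the first carries the A that makes an 8-base match. Sites 4 and 5 of TRIM71 lie next to each other, with the match of site 5 starting 23 bases after that of site 4.

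**Figure D1:**
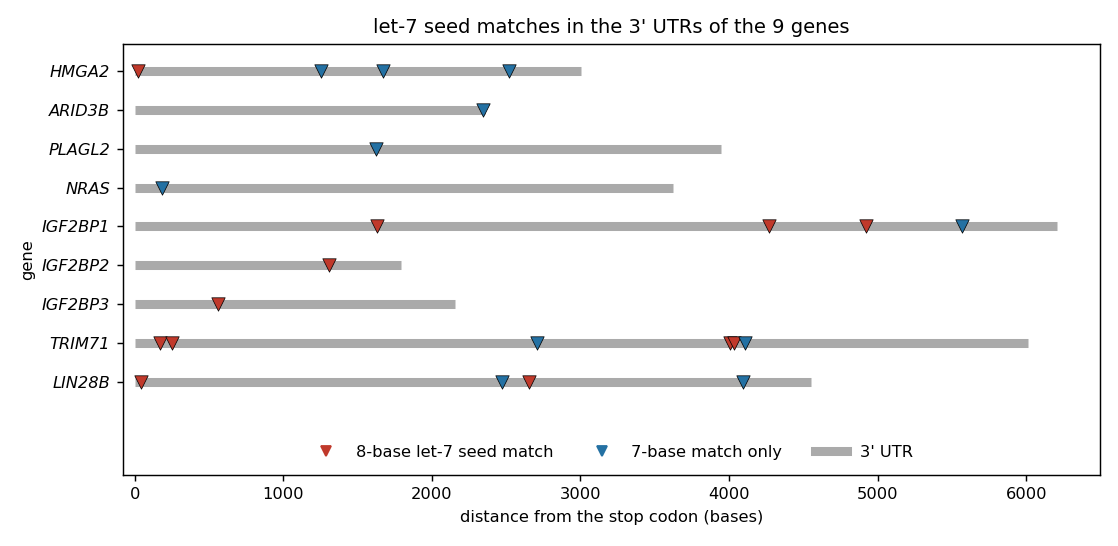
Map of let-7 seed matches along the 3′ UTR of each gene, with distance from the stop codon in bases on the x axis and genes on the y axis. Red marks are 8-base matches and blue marks 7-base matches only; TRIM71 holds 6 matches, HMGA2, IGF2BP1 and LIN28B hold 4 each, and ARID3B, PLAGL2, NRAS, IGF2BP2 and IGF2BP3 hold 1 each.

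The map of sites falls into genes with several matches and genes with a single match. TRIM71 has 6 matches in 6015 bases, 4 of them of 8 bases. HMGA2 has 4 in 3003 bases, IGF2BP1 4 in 6206 bases with 3 of 8 bases, and LIN28B 4 in 4549 bases with 2 of 8 bases. The first match starts at base 21 of the 3′ UTR in HMGA2, at base 44 in LIN28B, 172 in TRIM71 and 186 in NRAS. The ARID3B site starts at base 2342 of a 3′ UTR of 2357 bases, at its very end. A seed match of miR-1, a muscle microRNA, occurs in 1 member (IGF2BP1), and a match of miR-122, a liver microRNA, in 0.

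Library totals were 16950119 to 24864977 fragments, and 15683 genes passed edgeR's expression filter. Levels are given as FPKM, fragments scaled to the length of the model and the total of the library. A change is the log2 fold change of edgeR's quasi-likelihood test on fragment counts, and a gene is called where the Benjamini-Hochberg adjusted p over all tested genes is under 0.05. With 2 libraries a group, these p-values rest on a spread borrowed largely from other genes. Groups of 2 libraries can also stand apart without a call, as PLAGL2 and IGF2BP3 did under siLARP4B in PC3 (edgeR adjusted p 0.475 and 0.44). The share of all genes without overlap was not taken, so overlap is given below as a description. The targeted genes matched the labels: LARP4 fell by 2.98 in PC3 and by 1.96 in MG63 under siLARP4A, and LARP4B fell by 2.44 and by 1.70 under siLARP4B (log2; edgeR adjusted p at most 2.8e-13). PC3 libraries held EPCAM at 18.6 to 25.3 FPKM and MG63 libraries at 0 to 0.0660, while COL1A1 was 719 to 1337 in MG63 and 2.38 to 8.90 in PC3. RUNX2, a bone transcription factor, was low in both lines, at 0.140 to 0.654 FPKM in MG63.

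Read across the 4 contrasts against siControl, the members did not rise together. Of the 9 genes, 8 were tested, since LIN28B had too few fragments. The 8 include TRIM71 and IGF2BP1, each of which passed the expression filter only through the line where it was higher. IGF2BP1 in PC3 and TRIM71 in MG63 had too few fragments to be called. Every count of 8 carries this limit. Under siLARP4A in PC3, 6 rose (NRAS, IGF2BP2, HMGA2, ARID3B, PLAGL2 and TRIM71) and IGF2BP3 fell, so 7 of 8 were called where 36.4% of all tested genes were. Under siLARP4A in MG63, NRAS, PLAGL2 and IGF2BP1 rose and IGF2BP3 and HMGA2 fell, 5 of 8 against a background of 26.8%. Under siLARP4B, the same 4 genes were called in each line: HMGA2 and ARID3B rose, and NRAS and IGF2BP2 fell. That is 4 of 8 in PC3, where 45.7% of all genes were called, and 4 of 8 in MG63, where 34.9% were. With TRIM71 and IGF2BP1 set aside, siLARP4A left no member uncalled in PC3, and IGF2BP2 and ARID3B uncalled in MG63. siLARP4B left PLAGL2 and IGF2BP3 uncalled in each line.

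The medians differed by siRNA and line. Over the 6 members with at least 79 fragments in every library, all but LIN28B, TRIM71 and IGF2BP1, the median log2 fold change was 0.49 under siLARP4A in PC3, beside 0.03 over all tested genes. It was 0.11 under siLARP4A in MG63, beside -0.0005. Under siLARP4B it was 0.07 in PC3 and 0.008 in MG63, beside 0.04 and -0.003. These are descriptions of a list of few genes. The contrasts of a line share its 2 siControl libraries, so a high or low control library moves both. Under siLARP4A the share of all genes called higher was 19.5% in PC3 and 13.3% in MG63, and under siLARP4B 24.8% and 18.0%. The share called lower was 16.9% and 13.5% under siLARP4A, and 20.9% and 16.9% under siLARP4B.

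**Figure D2:**
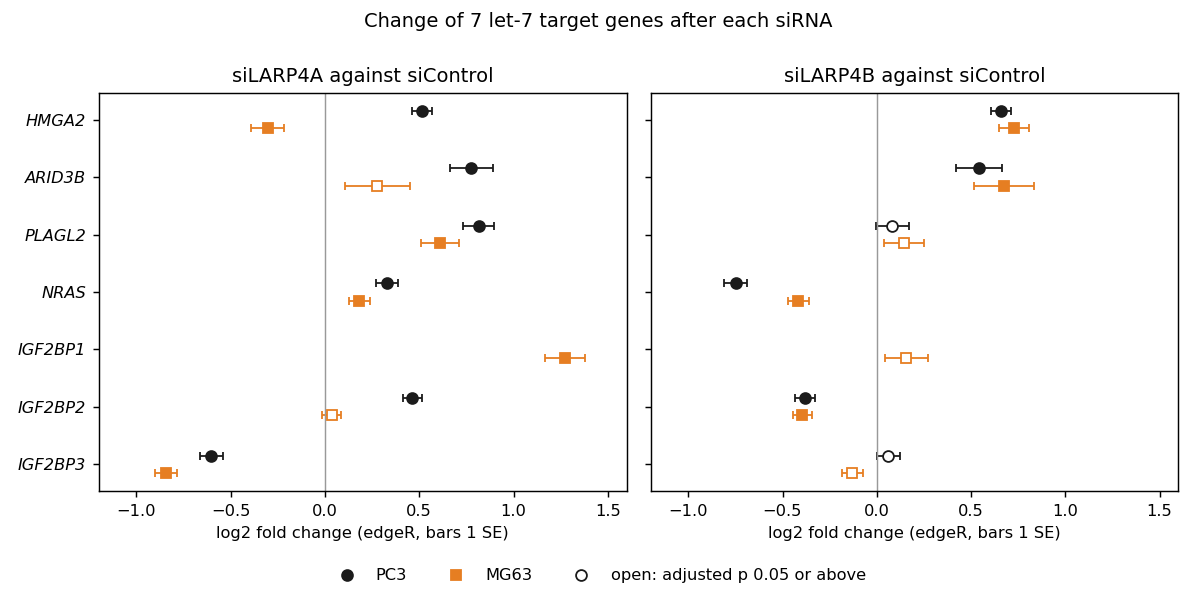
log2 fold change against siControl (x axis, with bars of 1 SE) of the 7 genes with enough fragments in at least 1 line (y axis), for siLARP4A on the left and siLARP4B on the right, with PC3 as black circles and MG63 as orange squares. Open marks did not pass an edgeR adjusted p of 0.05; under siLARP4B the called genes lie on the same side in both lines, while under siLARP4A HMGA2 lies at 0.51 in PC3 and at -0.30 in MG63.

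With siControl alone the lines were compared before any knockdown, over the 6 members counted well in both lines. Against PC3, MG63 held more IGF2BP3, NRAS and IGF2BP2 and less HMGA2, ARID3B and PLAGL2. All 6 were called, where 82.0% of all tested genes were, 40.7% higher in MG63 and 41.3% lower. IGF2BP1 and TRIM71 are left out of this count, since each passed the expression filter only through the line where it was higher. Among the same 6 members the largest gap was that of HMGA2, at 8.14-fold more in PC3 (log2 fold change of MG63 against PC3 -3.02, SE 0.07, edgeR adjusted p 6.07e-21). ARID3B was 2.27-fold and PLAGL2 1.88-fold higher in PC3. IGF2BP3 was 2.22-fold higher in MG63 (log2 1.15, SE 0.06, edgeR adjusted p 3.1e-14), NRAS 2.11-fold and IGF2BP2 1.30-fold. Line and tissue of origin cannot be told apart here, since each tumour type is 1 line.

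**Figure D3:**
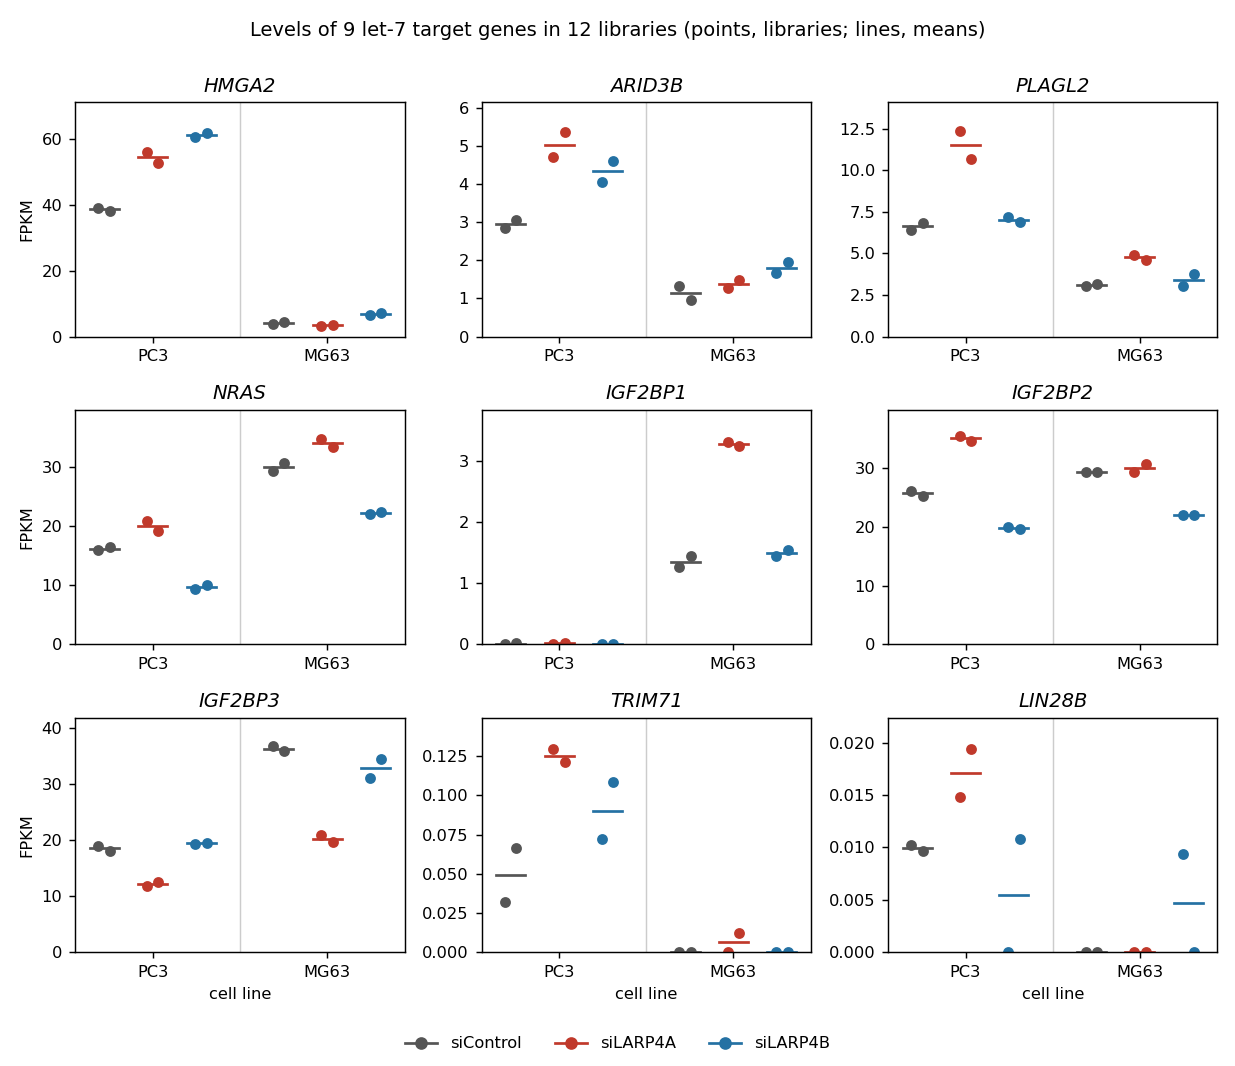
FPKM of each gene (y axis, from 0, with its own scale in each panel) in the 12 libraries, by cell line (x axis) and siRNA (grey siControl, red siLARP4A, blue siLARP4B); points are libraries and lines are means of 2. HMGA2 spans 38.2 to 61.7 in PC3 and 3.29 to 7.04 in MG63, IGF2BP1 is near 0 in PC3, and LIN28B stays below 0.02 in every library.

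HMGA2 encodes an architectural chromatin protein that bends AT-rich DNA, and it rose in 3 of the 4 contrasts against siControl and fell in the other. Its gene lies at chr12:65824483-65966291 on the plus strand (GRCh38). In PC3 the levels were 39.0 and 38.2 FPKM with siControl, 56.1 and 52.7 with siLARP4A, and 60.6 and 61.7 with siLARP4B. Both siRNAs thus lifted it, and no siRNA library overlapped the controls. The change was 0.51 under siLARP4A (SE 0.05, edgeR adjusted p 1.17e-07), a 1.43-fold rise, and 0.66 under siLARP4B (SE 0.05, edgeR adjusted p 1.22e-09), a 1.58-fold rise. In MG63 the levels were 3.93 and 4.40 with siControl, 3.29 and 3.45 with siLARP4A, and 6.61 and 7.04 with siLARP4B. Here siLARP4B again gave the highest libraries, but siLARP4A the lowest. The change was 0.73 under siLARP4B (SE 0.08, edgeR adjusted p 2.18e-07) and -0.30 under siLARP4A (SE 0.09, edgeR adjusted p 0.0123). The MG63 fall under siLARP4A rests on 237 to 346 fragments a library, and its adjusted p was 0.207 without MG63 siControl replicate 2, 0.121 without MG63 siLARP4A replicate 1 and 0.0511 without replicate 2.

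The direction of HMGA2 under siLARP4A differed between the lines. The effect in PC3 minus that in MG63 was 0.82 (SE 0.10, edgeR adjusted p 1.37e-05). HMGA2 is 1 of the 198 genes, 1.26% of those tested, that siLARP4A moved in opposite directions in the 2 lines. Under siLARP4B the difference between lines was -0.07 (SE 0.09, edgeR adjusted p 0.656), and the gene rose in both. Between the siRNAs, HMGA2 was lower under siLARP4A than under siLARP4B by 1.03 in MG63 (SE 0.08, edgeR adjusted p 1.17e-09). In PC3 that difference was 0.15 in size, with an edgeR adjusted p of 0.0211 that rose above 0.05 in 5 alternatives, up to 0.123.

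HMGA2 is also the only member with models that end before its let-7 sites. Of the 5 HMGA2 models in the tables, 4 end upstream of all 4 sites and 1, the model used here, holds them. Fragments in shared exons count for several models, so the ratio of the full model to a short one (mRNA sizes 4117 and 1993 bases) only follows the balance of the ends. In PC3 the ratio was 2.26 and 2.09 with siControl, 2.40 and 2.32 with siLARP4A, and 2.54 and 2.62 with siLARP4B. In PC3 the siControl libraries were the lowest and the siLARP4B libraries the highest, without overlap. In MG63 it was 2.84 and 3.20 with siControl, 2.93 and 2.56 with siLARP4A, and 3.37 and 2.67 with siLARP4B, and these groups overlapped. The short model rose as well: its fragments went from 1274 and 1437 with siControl to 1883 and 1645 with siLARP4B in PC3, and from 103 and 108 to 158 and 205 in MG63.

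Genes on the opposite strand overlap HMGA2, and how strand was handled is not given in the sources used here. HMGA2-AS1 had 446 fragments and RPSAP52 564 over the 12 libraries, against 27045 for HMGA2. HMGA2-AS1 rose with HMGA2 under siLARP4B in PC3 (log2 1.37, edgeR adjusted p 8.21e-06), while RPSAP52 was at -0.29 there (edgeR adjusted p 0.246). The part of either in the HMGA2 values was not tested.

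ARID3B, an ARID-domain DNA-binding protein, rose with HMGA2 under siLARP4B. It lies at chr15:74541177-74598131 on the plus strand. In PC3 it measured 2.85 and 3.07 FPKM with siControl, 4.70 and 5.37 with siLARP4A, and 4.05 and 4.61 with siLARP4B. Both siRNAs lifted it in PC3, by 0.78 (SE 0.12, edgeR adjusted p 1.65e-05) and by 0.54 (SE 0.12, edgeR adjusted p 0.000825), with no overlap with the controls. In MG63 it measured 1.33 and 0.968 with siControl, 1.29 and 1.49 with siLARP4A, and 1.67 and 1.95 with siLARP4B. There it rose under siLARP4B by 0.67 (SE 0.16, edgeR adjusted p 0.00236), a call lost without MG63 siControl replicate 2 (edgeR adjusted p 0.0719). Under siLARP4A the MG63 groups overlapped and the change was 0.28 (SE 0.17, edgeR adjusted p 0.26). With 79 to 118 fragments in these libraries, that value was 0.54 without MG63 siControl replicate 1 and 0.08 without replicate 2. The siLARP4A effects in the lines differed by 0.50 (SE 0.21, edgeR adjusted p 0.135).

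PLAGL2, a zinc-finger transcription factor, rose under siLARP4A in both lines. It lies at chr20:32192504-32207743 on the minus strand. Its levels in PC3 were 6.42 and 6.86 FPKM with siControl, 12.3 and 10.7 with siLARP4A, and 7.18 and 6.91 with siLARP4B. In MG63 they were 3.04 and 3.19 with siControl, 4.90 and 4.62 with siLARP4A, and 3.03 and 3.78 with siLARP4B. The siLARP4A libraries stood above all others of their line. For siLARP4A the PC3 change was 0.82 (SE 0.08, edgeR adjusted p 8.96e-08). The MG63 change was 0.61 (SE 0.10, edgeR adjusted p 8.71e-05). Under siLARP4B the values were 0.08 (SE 0.09, edgeR adjusted p 0.475) and 0.15 (SE 0.11, edgeR adjusted p 0.312). This MG63 value ranged from -0.0057 to 0.30 without each library in turn. Set directly against siLARP4B, siLARP4A gave more PLAGL2 by 0.73 in PC3 and by 0.47 in MG63 (edgeR adjusted p 1.09e-07 and 0.00057).

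NRAS, a small GTPase that drives growth signalling through the MAP kinase pathway, moved in opposite directions with the 2 siRNAs in both lines. It lies at chr1:114704469-114716771 on the minus strand. In PC3 it measured 16.0 and 16.4 FPKM with siControl, 20.9 and 19.3 with siLARP4A, and 9.32 and 10.0 with siLARP4B. In MG63 it measured 29.4 and 30.7 with siControl, 34.8 and 33.5 with siLARP4A, and 22.1 and 22.4 with siLARP4B. In each line siLARP4B gave the lowest libraries, siControl the middle and siLARP4A the highest, and no groups overlapped. The PC3 fall under siLARP4B was -0.75 (SE 0.06, edgeR adjusted p 2.5e-09). The MG63 fall was -0.42 (SE 0.06, edgeR adjusted p 4.88e-06). The PC3 rise under siLARP4A was 0.33 (SE 0.06, edgeR adjusted p 0.000115), and the MG63 rise 0.18 (SE 0.05, edgeR adjusted p 0.016). The MG63 rise was not called without MG63 siControl replicate 1 (edgeR adjusted p 0.106) or without MG63 siLARP4A replicate 1 (0.0999). The siLARP4B effect was larger in PC3 than in MG63, with a difference of -0.33 (SE 0.08, edgeR adjusted p 0.00528). Between the siRNAs, NRAS was 2.11-fold higher with siLARP4A in PC3 and 1.52-fold higher in MG63 (edgeR adjusted p 2.59e-12 and 1.41e-08).

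The IGF2BP proteins bind and stabilise mRNAs, among them IGF2 and MYC, and are made in the embryo and again in many tumours. Their 3 genes did not move together. Under siLARP4A IGF2BP3 fell in both lines, IGF2BP2 rose in PC3 and IGF2BP1 rose in MG63. Under siLARP4B IGF2BP2 fell in both lines, and IGF2BP1 and IGF2BP3 passed the threshold in neither line, IGF2BP3 in MG63 only under the alternatives given with its values.

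IGF2BP1, at chr17:48997385-49056145 on the plus strand, was an MG63 transcript. PC3 libraries held 1 to 5 fragments each, too few for a fold change. MG63 libraries held 1.26 and 1.45 FPKM with siControl, 3.32 and 3.24 with siLARP4A, and 1.45 and 1.54 with siLARP4B. The siLARP4A libraries stood above all the others, and the change was 1.27 (SE 0.11, edgeR adjusted p 8.13e-09), a 2.42-fold rise. Under siLARP4B it was 0.16 (SE 0.11, edgeR adjusted p 0.319), and 0.07 or 0.27 without MG63 siControl replicate 1 or 2. With siControl, MG63 held 444 fragments and PC3 4, a ratio per library total of 110 (95% exact interval 42.8 to 407, counting error only).

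IGF2BP2, at chr3:185643130-185825042 on the minus strand, measured 26.2 and 25.4 FPKM with siControl in PC3, 35.5 and 34.7 with siLARP4A, and 19.98 and 19.7 with siLARP4B. The 3 groups in PC3 did not overlap, in the same order as for NRAS. In MG63 it measured 29.5 and 29.3 with siControl, 29.4 and 30.8 with siLARP4A, and 22.14 and 22.03 with siLARP4B. There the siLARP4A and siControl libraries overlapped, and siLARP4B alone stood apart. The PC3 fall under siLARP4B was -0.38 (SE 0.05, edgeR adjusted p 2.99e-06), and the MG63 fall -0.39 (SE 0.05, edgeR adjusted p 2.97e-06). Under siLARP4A it rose by 0.46 in PC3 (SE 0.05, edgeR adjusted p 2.05e-07) and was at 0.04 in MG63 (SE 0.05, edgeR adjusted p 0.66), a difference between lines of 0.43 (SE 0.07, edgeR adjusted p 0.000331).

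IGF2BP3, at chr7:23310209-23470491 on the minus strand, fell under siLARP4A in both lines. In PC3 it measured 19.0 and 18.1 FPKM with siControl, 11.8 and 12.4 with siLARP4A, and 19.4 and 19.5 with siLARP4B. In MG63 it measured 36.7 and 35.9 with siControl, 20.8 and 19.7 with siLARP4A, and 31.1 and 34.4 with siLARP4B. In each line the siLARP4A libraries lay below all others. The fall in PC3 was -0.60 (SE 0.06, edgeR adjusted p 1.37e-07). In MG63 it was -0.84 (SE 0.06, edgeR adjusted p 6.16e-10). These leave 0.659 and 0.558 times the siControl level. Under siLARP4B the values were 0.06 (SE 0.06, edgeR adjusted p 0.44) and -0.13 (SE 0.06, edgeR adjusted p 0.084). The MG63 value was called lower in 4 of 21 alternatives, at -0.16 with a mean of at least 5 FPKM, at -0.13 without either PC3 siLARP4A replicate and at -0.19 without MG63 siLARP4B replicate 2 (edgeR adjusted p 0.0281 to 0.0466). Over all alternatives it ranged from -0.19 to -0.05, with adjusted p up to 0.585. IGF2BP3 carries an 8-base let-7 match, as do IGF2BP1 and IGF2BP2. Its 3′ end shares 1521 bases with MALSU1 on the opposite strand, which had 15922 fragments over the 12 libraries against 22465 for IGF2BP3. MALSU1 fell under siLARP4A too, by 0.34 in PC3 and by 0.52 in MG63 (log2; edgeR adjusted p 0.000199 and 2.75e-06), less than IGF2BP3 did, and its part in the IGF2BP3 values was not tested.

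The members closest to the control of let-7 itself, LIN28B and TRIM71, were barely present. LIN28B, at chr6:104957107-105083332 on the plus strand, had 8 fragments in all, 0 to 2 per library, and at most 0.0194 FPKM. In the 6 libraries with 0 fragments, a count of 0 allows up to 0.0288 to 0.0315 FPKM (3 fragments, counting error only). TRIM71, a ubiquitin ligase and RNA-binding protein of early embryos at chr3:32817997-32897824 on the plus strand, had 94 fragments over the 12 libraries. PC3 held 5 and 11 fragments with siControl, 28 and 20 with siLARP4A, and 12 and 16 with siLARP4B, which is 0.0320 and 0.0664, 0.129 and 0.121, and 0.0719 and 0.108 FPKM. The siLARP4A libraries were the highest, and the change was 1.34 (SE 0.45, edgeR adjusted p 0.025). That call was lost with limma on log2(FPKM + 1) (adjusted p 0.0677), without PC3 siControl replicate 1 (edgeR adjusted p 0.202) and without PC3 siLARP4A replicate 1 (0.098). Under siLARP4B it was 0.83 (SE 0.50, edgeR adjusted p 0.193), and 0.43 or 1.44 without PC3 siControl replicate 1 or 2. MG63 held 2 TRIM71 fragments in 1 siLARP4A library and 0 in the other 5. With siControl, PC3 held 16 TRIM71 fragments and MG63 held 0. With 3 fragments over the group as the floor in MG63, the ratio per library total is 5.36, and the counting error of the 16 is left out of it.

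Counted over both lines, siLARP4A raised NRAS and PLAGL2 and lowered IGF2BP3 in PC3 and in MG63. Of all tested genes, 7.6% rose and 7.35% fell under siLARP4A in both lines. siLARP4B raised ARID3B and HMGA2 and lowered IGF2BP2 and NRAS in both lines, beside 8.38% and 8.58% of all tested genes. No member was called higher under both siRNAs in both lines. In PC3 alone, HMGA2 and ARID3B rose under both siRNAs.

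The difference between the siRNAs was tested directly, as a contrast that the siControl means do not enter. The siControl libraries still share in the scaling and the spread of the fit. The counts of 8 members carry the limit given above for TRIM71 and IGF2BP1. In PC3, 5 of 8 members differed, where 54.1% of all tested genes did. NRAS, IGF2BP2 and PLAGL2 were higher with siLARP4A (26.3% of all genes were), and IGF2BP3 and HMGA2 were lower (27.8%). In MG63, 7 of 8 differed, where 43.8% of all genes did. IGF2BP1, NRAS, PLAGL2 and IGF2BP2 were higher with siLARP4A (21.6% of all genes), and HMGA2, IGF2BP3 and ARID3B were lower (22.2%). IGF2BP2 was higher with siLARP4A than with siLARP4B by 0.84 in PC3 and by 0.43 in MG63 (edgeR adjusted p 6.31e-12 and 4.82e-07). IGF2BP3 was lower, at -0.66 and -0.71 (edgeR adjusted p 8.24e-09 and 2.6e-09). The ARID3B difference in MG63 was -0.40 with an edgeR adjusted p of 0.0442, which rose above 0.05 in 6 alternatives, to 0.266 without MG63 siLARP4A replicate 1 or without MG63 siLARP4B replicate 2.

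Between the lines, the siLARP4A effect differed for 2 of the 6 members counted well in both lines, HMGA2 and IGF2BP2. Both were more positive in PC3. Of all tested genes 11.2% differed, 5.74% more positive in PC3 and 5.46% more negative. The siLARP4B effect differed for 1 of the 6, NRAS, where 26.8% of all genes did, 12.4% more positive in PC3 and 14.4% more negative. IGF2BP1 and TRIM71 are left out, since each had too few fragments in 1 line to show a difference between lines.

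The profile of each tested member was compared with tested genes that had a mean of at least 5 FPKM, and with the other members. The measure was Pearson's r over the 12 libraries on log2(CPM + 1), with the mean of each line taken out. With 6 groups behind 12 points, such values are high for many genes, and they are given as a description. NRAS was most like ATP2B4 and DSTYK (r 0.993 each), and IGF2BP2 most like LMNA (0.985) and PEA15 (0.981). HMGA2 was most like SLC11A2 (0.974) and IDH1 (0.968), PLAGL2 most like E2F3 and NCOA3 (0.978 each), and IGF2BP3 most like HNRNPH2 and EEF1E1-BLOC1S5 (0.974 each). IGF2BP1 was most like STC2 (0.967) and IGFBP4 (0.955). With few IGF2BP1 fragments in PC3, every r of this gene rests largely on the MG63 libraries. ARID3B was most like GSPT2 (0.95) and FAM219A (0.948), and TRIM71, with few fragments, most like SOCS5 (0.901) and SNORA70 (0.889). Among the members themselves, NRAS and IGF2BP2 ran together (0.955), IGF2BP3 ran against PLAGL2 (-0.902) and IGF2BP1 (-0.821), and HMGA2 stood nearest to ARID3B (0.697).

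A wider list of 50 let-7 targets, without the 9, was read in the same way. Of these, 48 were measured and 45 tested, and 38 of the 48 hold a 7-base match. Under siLARP4A in PC3, 17 rose and 8 fell, 25 of 45 where 36.4% of all tested genes were called, with a list median of 0.18 beside 0.03 over all genes. HIC2, a transcriptional repressor, rose by 1.88 (SE 0.09, edgeR adjusted p 1.32e-12), ARID3A, a relative of ARID3B, by 1.01 and FIGN by 0.92. SLC20A1, a phosphate carrier, was lowest at -0.47, then E2F2 at -0.44 and NAP1L1 at -0.34. Under siLARP4A in MG63, 13 rose and 7 fell, 20 of 45 beside 26.8% of all genes, with a median of 0.12 beside -0.0005. There THBS1, a matrix glycoprotein, rose by 1.05, DICER1 by 0.80 and FIGN by 0.79, while GDF6, a BMP-family ligand, was at -1.42, COIL at -0.42 and BZW1 at -0.31.

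Under siLARP4B in PC3, 10 genes of the wider list rose and 14 fell, 24 of 45 beside 45.7% of all genes (24.8% higher, 20.9% lower), with a median of -0.02 beside 0.04. CPEB2, a regulator of cytoplasmic polyadenylation, rose by 0.99, PBX3 by 0.67 and E2F5 by 0.64. The lowest were E2F2 at -1.61, RRM2, a ribonucleotide reductase subunit, at -1.34, and CDK6 at -1.005, all genes of cell cycle entry and DNA synthesis. In MG63, 11 rose and 10 fell, 21 of 45 beside 34.9% of all genes, with a median of 0.08 beside -0.003. CPEB2 rose by 1.32, E2F5 by 0.71 and IGF1R by 0.50, while THBS1 was at -0.89, LIMD2 at -0.75 and GDF6 at -0.59. All of these passed the edgeR threshold, with adjusted p from 6.3e-14 to 0.0101.

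Genes that make and use let-7 were read from lists of their own. Mature let-7 was not measured, because poly(A) libraries do not hold it, and the rows of its precursors had 0 to 12 fragments per library. MIRLET7BHG, the host transcript of let-7a-3 and let-7b, rose under siLARP4B by 1.02 in PC3 and by 0.57 in MG63 (edgeR adjusted p 6.35e-06 and 0.0012), from 99 and 127 fragments to 248 and 201 in PC3. Of the other 3 host transcripts tested, MIR100HG rose under siLARP4A in PC3 by 0.62 (edgeR adjusted p 4.14e-08). HUWE1 was at -0.43 under siLARP4B in PC3 (edgeR adjusted p 0.00403) and MIR99AHG at -0.47 under siLARP4B in MG63 (edgeR adjusted p 0.0377). Of 7 effector genes, 3 rose and 1 fell under siLARP4A in each line, 4 of 7 beside 36.4% of all genes in PC3 and 26.8% in MG63. AGO2, the slicing Argonaute, rose by 0.61 and by 0.68, AGO4 by 0.69 and by 0.93, and TNRC6C by 0.96 and by 0.61, while TNRC6A was at -0.87 and -0.56 (PC3 and MG63; edgeR adjusted p at most 0.00133). Under siLARP4B 1 rose and 1 fell in each line, 2 of 7 beside 45.7% and 34.9%. TNRC6A rose by 0.51 and by 0.55. AGO2 fell in PC3, at -0.71 (edgeR adjusted p 2.05e-07), and was at -0.04 in MG63 (edgeR adjusted p 0.771), where TNRC6B fell, at -0.30 (edgeR adjusted p 0.0344). The calls of HUWE1, MIR99AHG and TNRC6B were lost without some of the single libraries: HUWE1 without PC3 siLARP4B replicate 1, MIR99AHG without any MG63 library in turn, and TNRC6B without either MG63 siControl library or MG63 siLARP4B replicate 1, where it was at -0.09. All 3 were also lost with DESeq2.

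Of 13 tested genes of let-7 biogenesis and decay, 4 rose and 1 fell under siLARP4A in PC3, and 2 rose and 2 fell in MG63. These 5 and 4 of 13 are near the 36.4% and 26.8% of all genes. DICER1, which cuts the precursor and is itself a let-7 target, rose under siLARP4A by 0.89 and by 0.80, while XPO5, which exports precursors, was at -0.47 and -0.32. Under siLARP4B 1 rose and 5 fell in PC3 (6 of 13 beside 45.7%), and 5 rose and 2 fell in MG63 (7 of 13 beside 34.9%), with PRKRA, a partner of Dicer, at -0.79 and -0.62. DICER1 fell under siLARP4B in PC3, at -0.39 (edgeR adjusted p 0.000954), and was at -0.11 in MG63 (edgeR adjusted p 0.418). XPO5 was at -0.22 in PC3 and at 0.17 in MG63 under siLARP4B (edgeR adjusted p 0.00234 and 0.0255). The part of these changes in the members' values was not tested.

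Last, genes were grouped by let-7 matches over the whole transcriptome, as a description beside the members. Of 13410 tested genes with an annotated 3′ UTR, 525 hold an 8-base match, 5 of them members. Under siLARP4A 34.7% of these were higher and 13.0% lower in PC3, and 23.0% and 11.6% in MG63. Among genes without the 8-base match the shares were 20.9% and 18.7% in PC3, and 14.5% and 14.7% in MG63. Under siLARP4B the 525 genes were 24.4% higher and 27.0% lower in PC3, and 18.3% and 21.3% in MG63. Without the 8-base match they were 26.1% and 22.6% in PC3, and 20.0% and 17.9% in MG63.

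UTR length moved with the matches, at a median of 3034 bases with an 8-base match and 1163 without. Within 3′ UTRs of 2000 to 5000 bases, a range added after the values were seen, the gap was smaller. There siLARP4A in PC3 gave 34.8% higher and 13.7% lower among 227 genes with the 8-base match, and 27.4% and 17.6% among 2868 genes with no 7-base match. The same shares were 25.1% and 17.9% for 307 genes with the miR-1 match ACATTCCA, and 22.1% and 20.1% for 149 genes with the miR-122 match ACACTCCA. In MG63 they were 27.3% and 12.3% with the let-7 match, 19.6% and 14.7% without, 21.8% and 14.7% for miR-1, and 23.5% and 16.1% for miR-122. No test was made of these shares, and other properties of the genes were not matched.

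**Figure D4:**
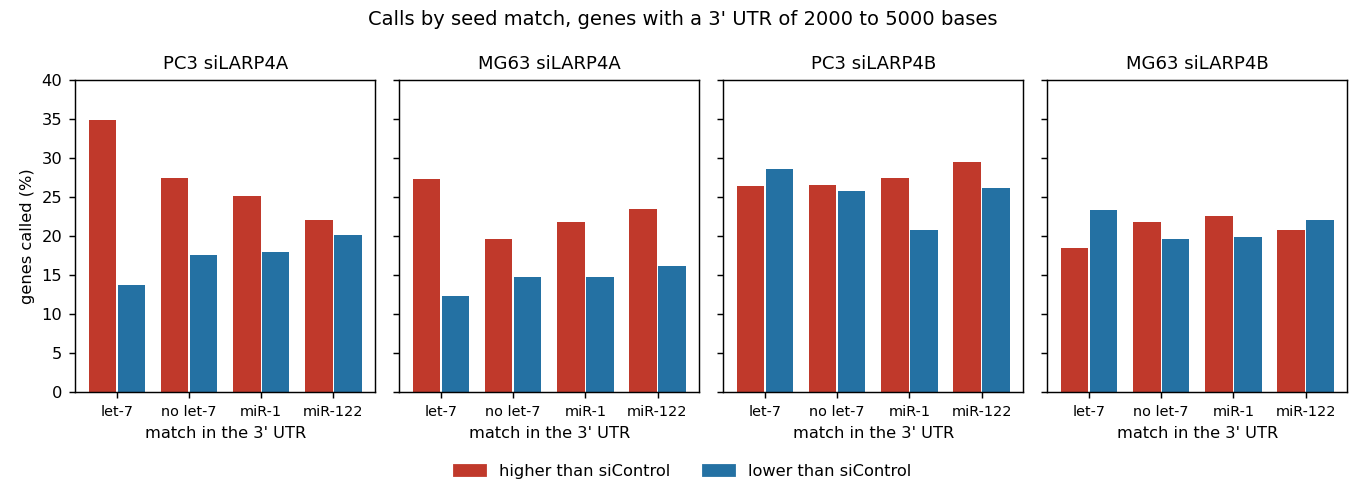
Percent of genes called higher (red) or lower (blue) than siControl (y axis) among genes with a 3′ UTR of 2000 to 5000 bases, by 8-base seed match of let-7, no 7-base let-7 match, and 8-base match of miR-1 or miR-122 (x axis), in each contrast. Under siLARP4A the let-7 bar for higher genes is the tallest of its panel, at 34.8% in PC3 and 27.3% in MG63, and under siLARP4B it is 26.4% in PC3 and 18.5% in MG63.

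The number of matches and the direction of the called members are listed here as a description, and their relation was not tested. Under siLARP4A in PC3, NRAS, PLAGL2 and ARID3B, each with a single 7-base match, rose. HMGA2 with 4 matches, TRIM71 with 6 and IGF2BP2 with a single 8-base match rose there too, while IGF2BP3 with a single 8-base match fell. In MG63, NRAS and PLAGL2 with 1 match each and IGF2BP1 with 4 matches rose. HMGA2 with 4 matches and IGF2BP3 with 1 fell. Under siLARP4B HMGA2 with 4 matches and ARID3B with 1 rose in both lines, and NRAS and IGF2BP2 with 1 match each fell.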

How the data were processed

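Poly(A) RNA of 12 libraries was analysed from the tables the authors deposited, 1 per library. Per the file headers, each gene model has a fragment count and an FPKM value. The submitters' processing notes name FastQC, HISAT2, featureCounts, edgeR and the hg38 build. Tool versions, annotation and strand handling are not given in the sources used here. The deposited counts are whole fragments, and a fragment in a shared exon counts for each model. The deposited FPKM values are the count scaled to model length and library total. Symbols with models at several loci were left out (1814), which left 26464.

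The count test was that of edgeR 4.0.16 under R 4.3.3 (quasi-likelihood F-test, two-sided, TMM, default filter, 6 group means in 1 fit) over 15683 genes in 9 comparisons, with Benjamini-Hochberg adjustment within each and a threshold of 0.05. The biological coefficient of variation was 4.22%. The scripts were tested on simulated data. DESeq2 1.42.0, limma 3.58.1 on log2(FPKM + 1), other filters, scalings and models, a replicate block and leaving out each library were tried. Three-prime UTRs came from GENCODE release 29; for 78.3% their end lay within 10 bases of the table's model, and for IGF2BP1 and IGF2BP2 it lay 495 and 609 bases away.

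The members and lists were chosen with earlier results of these data known. Named genes were all members, LARP4 and LARP4B, for the wider list the 3 highest and 3 lowest called changes with a mean of at least 1 FPKM in either group, called genes of the biogenesis, effector and host lists, and per member the 2 most similar profiles among genes with a mean of at least 5 FPKM. MALSU1, HMGA2-AS1 and RPSAP52 were named for their overlap.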

Additional observations from a re-analysis of the deposited data

Results flagged for a closer look

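HMGA2 drew attention because the siLARP4A effect differed between the lines: PC3 minus MG63 was 0.82 on the log2 scale (edgeR adjusted p 1.37e-05), with all 4 siLARP4A libraries outside their controls, above them in PC3 and below them in MG63. IGF2BP2 differed in the same contrast by 0.43 (edgeR adjusted p 0.000331), with a rise in PC3 and overlapping groups in MG63. NRAS differed under siLARP4B by -0.33 (edgeR adjusted p 0.00528), with a fall in both lines that was larger in PC3. Each was found by the test of the difference itself. HMGA2 was 8.14-fold lower in MG63 siControl than in PC3 siControl, and the SE of its siLARP4A effect was 0.09 in MG63 and 0.05 in PC3.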

How the results depend on the processing

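Of 51 member values, 42 kept their direction and their side of the threshold in every alternative run, and so did 48 of 54 values of other genes. Members called under siLARP4A ranged from 6 to 7 in PC3 and from 3 to 5 in MG63 (main counts 7 and 5) without each library in turn, and under siLARP4B from 4 to 4 and from 3 to 5 (main 4 and 4). The 3 under siLARP4A came without MG63 siLARP4A replicate 1, and the 3 under siLARP4B without MG63 siControl replicate 2. With a mean of at least 5 FPKM, fewer genes are tested, and the siLARP4B effect then differed between lines for 2 members (main 1). The wider list then had 15 calls under siLARP4B in PC3 (4 higher, 11 lower, main 24) and 13 under siLARP4A in MG63 (main 20). The PLAGL2 change under siLARP4B in MG63 ranged from -0.0057 to 0.30 without each library, across 0, and did not keep its side of the threshold. Genes with a 7-base let-7 match had median log2 fold changes of 0.0924 and 0.0547 under siLARP4A and 0.0254 and -0.022 under siLARP4B (PC3 and MG63). With the 8-base match these were 0.127 and 0.0661, and 0 and -0.0148. Within 3′ UTRs of 2000 to 5000 bases they were 0.142 and 0.0787, and 0.0618 and -0.00966. Genes with no 7-base match also had higher medians in that range under siLARP4A. Theirs were 0.0233 and -0.0036 over all lengths, and 0.0692 and 0.0308 within the range. Under siLARP4B they were 0.0346 and 0 over all lengths, and 0.0173 and 0 within it. The cause was not tested.

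Same-numbered libraries did not deviate together over all tested genes (r of -0.0269 to 0.0492 over 6 pairs of groups), so no pairing by number was seen. Counting noise in genes with few fragments can lower such values, so this check cannot exclude a pairing. With a replicate block the members called were 7 and 4 in PC3 and 5 and 4 in MG63 (siLARP4A and siLARP4B), and the wider list had 24 and 24 calls in PC3 and 20 and 21 in MG63; no call of a member changed. Depth limits LIN28B, TRIM71, IGF2BP1 in PC3, and ARID3B and HMGA2 in MG63. Strand handling, 1 model per gene and 2 libraries a group limit all values.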
